A study of Mus musculus with 11 samples.

Results

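The genes examined here are 10 genes through which the zona glomerulosa, the outer layer of the adrenal cortex, senses angiotensin II and potassium and makes aldosterone. They were taken by symbol from a table of 23337 genes, and all 10 were found: Cyp11b2 and Hsd3b6 (enzymes), Agtr1a and Agtr1b (angiotensin II receptors), Kcnk3, Kcnk9, Kcnj5 and Cacna1h (ion channels), and Dab2 and Vsnl1 (cytoplasmic proteins used as markers of the zone). Adrenal RNA was sequenced in 11 samples from male nude mice (strain Hsd:Athymic Nude-Foxn1nu, which lacks a functional thymus). Of these libraries 5 came from intact mice and 6 from the group ORX, labelled as orchectomized, that is, with the testes removed. All mice, intact ones included, had been inoculated with VCaP cells, a human prostate cancer line, at about 5 to 6 weeks of age (week 0). They were allocated to their group at week 7 and killed at week 15. The labels give neither the date of the surgery nor sham surgery of the intact mice. The design holds 1 comparison, between glands of mice with and without testes.

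Angiotensin II binds its type 1 receptor on glomerulosa cells, which acts through Gq proteins, while a rise in plasma potassium depolarises the membrane. Potassium leak channels hold these cells at a very negative potential, and on depolarisation calcium enters through voltage-gated channels. Calcium signalling then raises transcription of Cyp11b2, aldosterone synthase, which carries out the last steps of aldosterone synthesis.

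In ORX, 4 of the 9 members that could be tested fell and none rose. Kcnk9 fell 10.5-fold, Hsd3b6 4.14-fold, Agtr1a 2.31-fold and Cacna1h 1.55-fold in mean CPM (counts scaled to library size, with TMM factors). Over all 14139 tested genes 6.21% were called, 3.18% lower and 3.03% higher (edgeR's quasi-likelihood test, two-sided, Benjamini-Hochberg adjusted p under 0.05). At an unadjusted p under 0.05 no member was higher, against 1514 of all 14139 tested genes. DESeq2 and limma voom called no member higher either. The other 5 tested members, Cyp11b2 among them, did not pass, and their groups overlapped. Groups did not overlap for 1 of the 9, Kcnk9, and for 5.28% of all tested genes (ORX below in 2.36%, above in 2.92%). The fitted difference lay below 0 in all 9, with a median of -0.61 (log2) against 0.01 over all tested genes. Kcnj5 was too low to be tested. In whole glands, fewer cells of a type and less RNA per cell cannot be told apart.

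**Figure D1:**
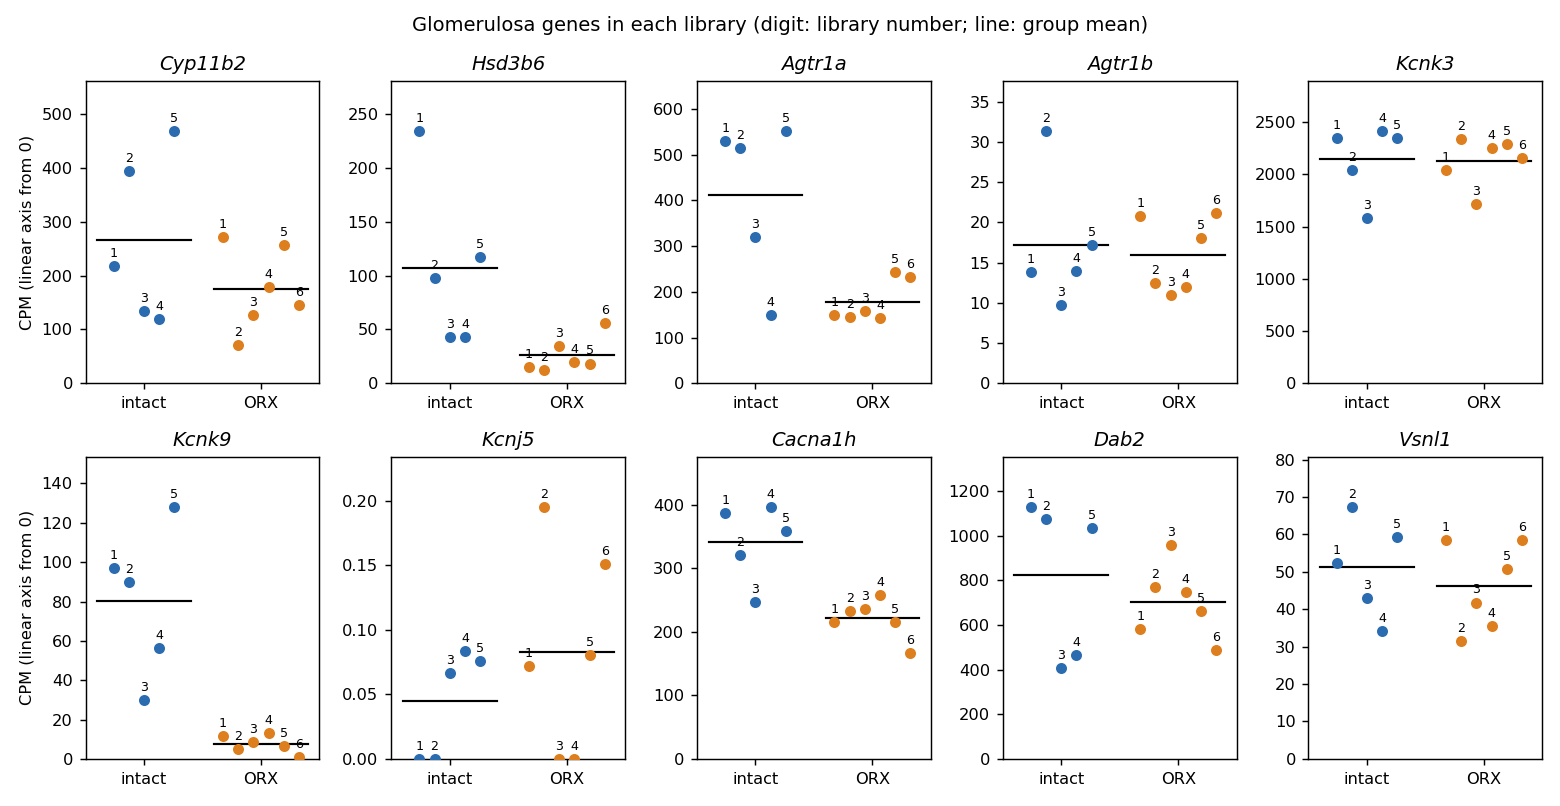
CPM of each of the 10 genes in each library (vertical axes linear from 0, a separate scale per gene), for intact (blue, n = 5) and ORX (orange, n = 6), with the library number above each point and the group mean as a line. Kcnk9 alone separates the groups, and intact 3 and 4 lie low in Cyp11b2, Hsd3b6, Kcnk9, Dab2, Agtr1a and Vsnl1.

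Library totals ranged from 11368447 to 15029582 counts. Markers of the labelled tissue were high and those of the adjoining kidney near 0. Star was at a mean of 20961 CPM in intact and 21788 in ORX, while 7 kidney markers summed to at most 2.44 CPM in any library, with Umod at 0 in all. Liver markers (5 genes) were more uneven, with sums of 1.92 to 51.4 CPM in intact and 2.47 to 249 CPM in ORX. The sum was highest in ORX 6, none of the 5 passed in edgeR, and the source of these counts was not tested. Several libraries stood apart from their group. Intact 3 had the highest mean level of 10 fat markers among the intact libraries (9.43 in log2 CPM, against 7.68 to 8.75) and the lowest of 8 fasciculata markers (9.23, against 9.87 to 10.67). ORX 6 was rich in short transcripts, whose level relative to the mean of all libraries lay 1.43 (log2) above that of long ones, taken from the extremes of 10 length bins, against -0.45 to 0.42 in the others. The labels also carry S numbers that run through the intact and then the ORX libraries. What they mark is not stated, and if it is an order of handling, it and the group cannot be told apart.

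Per kilobase of the longest coding transcript, Kcnk3 was the most abundant member in intact glands (563 ± 90.3 CPM per kilobase, SD, n = 5). Agtr1a (188 ± 79.4), Dab2 (176 ± 76) and Cyp11b2 (164 ± 96.6) followed and did not differ from each other beyond their spread. Next came Hsd3b6 (59.3 ± 43.4), Cacna1h (41.5 ± 7.44) and Vsnl1 (26.9 ± 6.88), whose ranges overlapped, and then Agtr1b (8 ± 3.87) and Kcnk9 (6.52 ± 3.09), which also overlapped. In ORX (n = 6) the order from Kcnk3 (559 ± 60.3) to Dab2 (151 ± 35.2), Cyp11b2 (108 ± 47.7) and Agtr1a (81.2 ± 21.1) was followed by Cacna1h (26.9 ± 3.75), Vsnl1 (24.2 ± 6.09) and Hsd3b6 (14.3 ± 9.21). Agtr1b (7.41 ± 2.15) and Kcnk9 (0.622 ± 0.374) came last among the tested members.

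Cyp11b2 (chromosome 15, 74851010 to 74856318, minus strand, GRCm38) stood at 218, 395, 135, 119 and 468 CPM in intact 1 to 5. In ORX 1 to 6 it stood at 271, 70.6, 127, 179, 256 and 145 CPM. The groups overlapped over most of their range: ORX 1 and 5 exceeded 3 of the 5 intact libraries, and ORX 2 was the lowest of all. The means were 267 ± 157 and 175 ± 77.4 CPM (log2 -0.61 ± 0.40, SE; edgeR adjusted p = 0.388), so no difference in aldosterone synthase RNA was detectable at this spread. Without intact 3 and 4 together the difference was -1.06 and still did not pass (edgeR adjusted p = 0.0884).

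Hsd3b6 encodes the 3-beta-hydroxysteroid dehydrogenase isoform of the mouse glomerulosa, which makes progesterone from pregnenolone early in the pathway (chromosome 3, 98805504 to 98814443, minus strand). Its level was 234, 97.7, 42.6, 43.3 and 117 CPM in intact 1 to 5 and 14.6, 12.6, 34.2, 19.3, 18.3 and 56.0 CPM in ORX 1 to 6. Every ORX library but ORX 6 lay below every intact library. The mean fell from 107 ± 78.2 CPM to 25.8 ± 16.6 (log2 -2.05 ± 0.48; edgeR adjusted p = 0.026). The call was lost without intact 1 (log2 -1.54; edgeR adjusted p = 0.0722) and also without intact 5, ORX 1, ORX 2, ORX 4 or ORX 5.

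Its neighbour Hsd3b1, the isoform of the whole cortex (chromosome 3, 98852194 to 98859794, same strand), went the other way. It stood between 7071 and 9641 CPM in the intact libraries and between 13533 and 23340 CPM in ORX, with no overlap (log2 1.14 ± 0.21; edgeR adjusted p = 0.0072). The 250 bases upstream of each start are shown, since these related genes on the same strand moved in opposite directions (RefSeq, GRCm38.p6, chr3:98814444-98814693 and chr3:98859795-98860044, both minus strand). Capitals mark the GATA motif AGATAA on either strand.
Hsd3b6: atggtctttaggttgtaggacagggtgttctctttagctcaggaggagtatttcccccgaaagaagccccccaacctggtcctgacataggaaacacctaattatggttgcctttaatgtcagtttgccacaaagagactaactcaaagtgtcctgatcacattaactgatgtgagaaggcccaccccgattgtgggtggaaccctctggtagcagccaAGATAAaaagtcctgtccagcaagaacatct
Hsd3b1: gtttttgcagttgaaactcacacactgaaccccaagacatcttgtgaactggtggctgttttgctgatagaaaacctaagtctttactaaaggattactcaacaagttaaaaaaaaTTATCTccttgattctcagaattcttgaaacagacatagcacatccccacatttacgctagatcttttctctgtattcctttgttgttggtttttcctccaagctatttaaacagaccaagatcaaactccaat
In Hsd3b6 the motif starts 31 bases before the start site on the gene's strand, and in Hsd3b1 its reverse complement starts 134 bases before it. AGATAA occurs on either strand in 9.99% of 32851 such upstream windows of all genes. Neither window holds AAGGTCA, the motif of SF-1 and NR4A factors (4.08% of windows), the cyclic AMP response motif TGACGT (6.47%) or TATAAA (12.4%). The longest run of bases that both windows share is 7. Upstream sequences were matched for 5 of the 10 members (Hsd3b6, Agtr1b, Kcnj5, Dab2 and Vsnl1). Those of Cyp11b2, Agtr1a, Kcnk3, Kcnk9 and Cacna1h were not used here.

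Of the paired angiotensin II type 1 receptors of rodents, Agtr1a (chromosome 13, 30336441 to 30382867, plus strand) was by far the more abundant. Its level was 531, 514, 319, 149 and 551 CPM in intact 1 to 5 and 149, 144, 159, 143, 243 and 233 CPM in ORX 1 to 6. Intact 4 lay within the ORX range and the other 4 intact libraries above it. Agtr1a fell from a mean of 413 ± 175 CPM to 179 ± 46.5 (log2 -1.21 ± 0.30; edgeR adjusted p = 0.0299). The call was lost without intact 5 (log2 -1.08; edgeR adjusted p = 0.0875) and without intact 1, intact 2, ORX 1, ORX 2 or ORX 4. Agtr1b (chromosome 3, 20314473 to 20367177, minus strand) was at 13.8, 31.3, 9.67, 14 and 17.2 CPM in intact 1 to 5 and 20.8, 12.5, 11, 12, 18 and 21.2 CPM in ORX 1 to 6. These ranges overlapped almost wholly (log2 -0.11 ± 0.29; edgeR adjusted p = 0.861), and the sign turned to 0.22 without intact 2, the highest library. Agtr1a overlaps a predicted gene, Gm48161, on its own strand, which is not among the counted genes under that symbol.

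Kcnk3 and Kcnk9 encode TASK potassium leak channels that set the resting potential of glomerulosa cells, and in mice loss of Kcnk3 disturbs the zonal placement of Cyp11b2 in a sex-dependent way. The members of this pair differed in their response. Kcnk9 (chromosome 15, 72501089 to 72546340, minus strand) was at 97.0, 90.1, 29.7, 56.2 and 128 CPM in intact 1 to 5 and at 11.8, 4.87, 8.77, 13.2, 6.49 and 0.754 CPM in ORX 1 to 6. The lowest intact library thus exceeded the highest ORX library, a separation in this direction that 2.36% of all tested genes showed. The mean of Kcnk9 fell from 80.2 ± 38 CPM to 7.65 ± 4.6 (log2 -3.39 ± 0.52; edgeR adjusted p = 0.00251), and the call held without any 1 library (edgeR adjusted p up to 0.0095). Its longest transcript measures 12300 bases, and ORX 6, the library short of long transcripts, was the lowest with 10 counts. Without ORX 6 the difference was -3.15.

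Kcnk3 (chromosome 5, 30588170 to 30625271, plus strand) held a narrow range in both groups. It stood at 2345, 2041, 1586, 2411 and 2343 CPM in intact 1 to 5 and at 2039, 2334, 1716, 2255, 2291 and 2159 CPM in ORX 1 to 6. Intact 3 and ORX 3, the lowest of their groups, had the highest fat marker levels (9.43 and 8.89 in log2 CPM). The part of fat tissue in these values was not tested. The fitted difference was -0.01 ± 0.16 (log2; edgeR adjusted p = 0.981). An antisense gene, Gm9899, with up to 813 counts in a library, overlaps Kcnk3.

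Kcnj5, a G protein-gated inward rectifier potassium channel whose mutations cause many human aldosterone-producing adenomas (chromosome 9, 32314707 to 32344350, minus strand), was nearly absent from these counts. The 5 intact libraries held 0, 0, 1, 1 and 1 counts and the 6 ORX libraries 1, 3, 0, 0, 1 and 2, at most 0.195 CPM. It was at or under the floor of 3 counts in every library, so no difference was detectable at this depth.

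Cacna1h encodes a T-type voltage-gated calcium channel, opened by small depolarisations and mutated in a familial form of human aldosteronism (chromosome 17, 25374285 to 25433783, minus strand). It stood at 387, 320, 246, 396 and 359 CPM in intact 1 to 5 and at 216, 233, 236, 258, 215 and 167 CPM in ORX 1 to 6. Only intact 3 and ORX 4 crossed, and the other 4 intact libraries lay above all ORX libraries. The mean of Cacna1h fell from 342 ± 61.2 CPM to 221 ± 30.9 (log2 -0.63 ± 0.16; edgeR adjusted p = 0.0329). The call was lost without intact 1 (edgeR adjusted p = 0.0862) or without intact 2, intact 4, intact 5, ORX 1, ORX 2 or ORX 5. With an offset for transcript length the difference was -0.34 and did not pass (edgeR adjusted p = 0.106). Its antisense neighbour Tpsg1 had at most 6 counts in a library.

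Dab2, an endocytic adaptor protein that marks the rodent glomerulosa and is also made by macrophages and endothelial cells (chromosome 15, 6299788 to 6440712, plus strand), stood at separate high and low levels in the intact group. It stood at 1129, 1074 and 1037 CPM in intact 1, 2 and 5 and at 409 and 465 CPM in intact 3 and 4, which lay below all ORX libraries. ORX 1 to 6 were at 584, 771, 961, 749, 662 and 489 CPM (log2 -0.23 ± 0.28; edgeR adjusted p = 0.678). Without intact 3 and 4 together the difference was -0.64 (edgeR adjusted p = 0.0688). The summed level of 9 macrophage markers ranged from 319 to 724 CPM in intact and from 421 to 850 CPM in ORX, and that of 9 endothelial markers from 808 to 1317 and from 779 to 1006 CPM. None of these markers was at 0 in either group, and their part in the Dab2 values was not tested. The genes Gm16311 and Gm18888 overlap Dab2 on the antisense strand and are not among the counted genes under those symbols.

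Vsnl1, a calcium sensor of the visinin-like family, is raised in human aldosterone-producing adenomas (chromosome 12, 11325242 to 11436613, minus strand). It stood at 52.3, 67.3, 43.1, 34.1 and 59.3 CPM in intact 1 to 5 and at 58.5, 31.5, 41.8, 35.6, 50.8 and 58.6 CPM in ORX 1 to 6. The groups overlapped throughout (log2 -0.15 ± 0.21; edgeR adjusted p = 0.716).

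**Figure D2:**
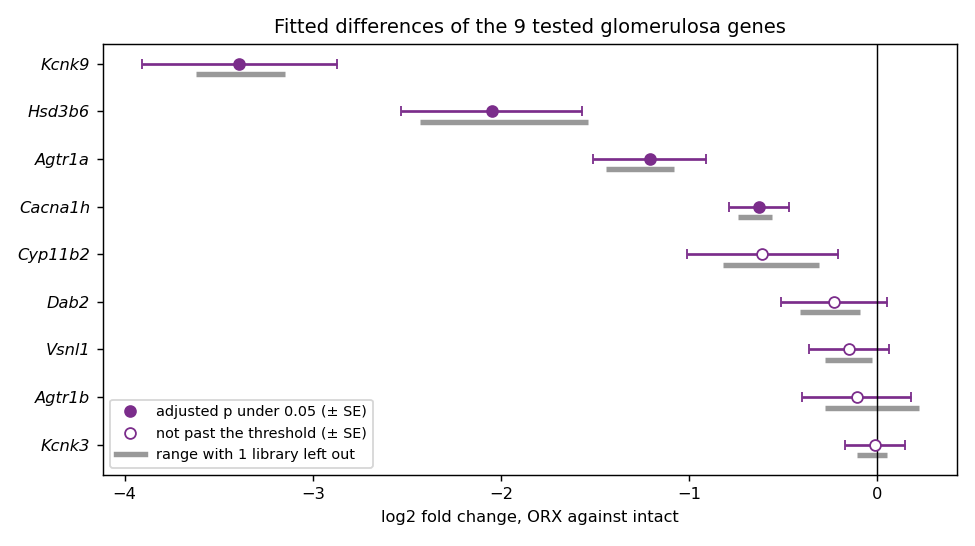
Fitted log2 fold change (horizontal axis, ORX against intact) of the 9 tested genes with its SE, filled where the adjusted p was under 0.05, and in grey the range when any 1 library was left out. Kcnk9 (-3.39), Hsd3b6 (-2.05), Agtr1a (-1.21) and Cacna1h (-0.63) passed, and the grey ranges of Agtr1b and Kcnk3 cross 0.

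Intact 3 and 4 held the lowest places of the intact group for 6 of the 9 tested members, namely Cyp11b2, Hsd3b6, Agtr1a, Kcnk9, Dab2 and Vsnl1. They were not low throughout, since intact 4 had the highest Kcnk3 and Cacna1h of its group. Leaving both out is a choice made on the measured outcome, and it enlarges the differences of the genes in which they were low. The same 4 members were called lower without them, with log2 differences of -3.79 for Kcnk9, -2.55 for Hsd3b6, -1.59 for Agtr1a and -0.70 for Cacna1h (edgeR adjusted p 0.0187 or below). Leaving out intact 3 and ORX 6 together, the libraries that stood apart in fat markers and transcript length, also left these 4 called.

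Markers of the medulla, the catecholamine-producing core, overlapped between the groups. The summed level of its 12 markers was 13359 to 29898 CPM in intact and 7600 to 18191 CPM in ORX, with none at 0. Their mean log2 CPM, the level used as a covariate below, nearly separated the groups. It was 8.41 to 9.02 in intact and 7.77 to 8.44 in ORX, and only intact 3 and ORX 6 crossed. Of the 12, 10 lay below 0 in ORX against intact, and 1 passed, Slc18a2 (log2 -1.44 ± 0.24; edgeR adjusted p = 0.00411). Of all 14139 tested genes, 6882 lay below 0. At an unadjusted p under 0.05, 7 of the 12 markers were lower and 0 higher, against 1730 and 1514 of all tested genes. With the medulla level as a covariate, which differs between the groups itself, no member was called. The difference of Kcnk9 was then -3.65 (edgeR adjusted p = 0.12), that of Cacna1h -0.61 (0.279), that of Agtr1a -0.61 (0.521) and that of Hsd3b6 -0.21 (0.785). Over all genes that covariate left 89 higher and 22 lower calls, against 428 and 450 without it. Of the 11 called genes of the pathway lists described further on, 10 lost their call with it, all but Nr0b1, and the sizes of Clcn2 (from 1.60 to 0.91) and Kcnmb4 (from -1.85 to -1.10) moved most. Slc18a2 itself (-1.10), Pdgfrb, 2310042D19Rik and Zbtb40, named here and at the end, also lost theirs. The part of the medulla in these results was not tested. All 10 fat markers lay below 0 and none passed (4903 to 13311 CPM summed in intact, 3076 to 13795 in ORX), and with the fat level as a covariate the same 4 members were called. Of 11 markers of the capsule and stroma, which adjoin the glomerulosa, Pdgfrb fell (log2 -0.81 ± 0.18; edgeR adjusted p = 0.0186, 0.0582 without intact 5 and 0.0501 without ORX 5). Their sums were 703 to 1211 CPM in intact and 536 to 1196 in ORX.

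**Figure D3:**
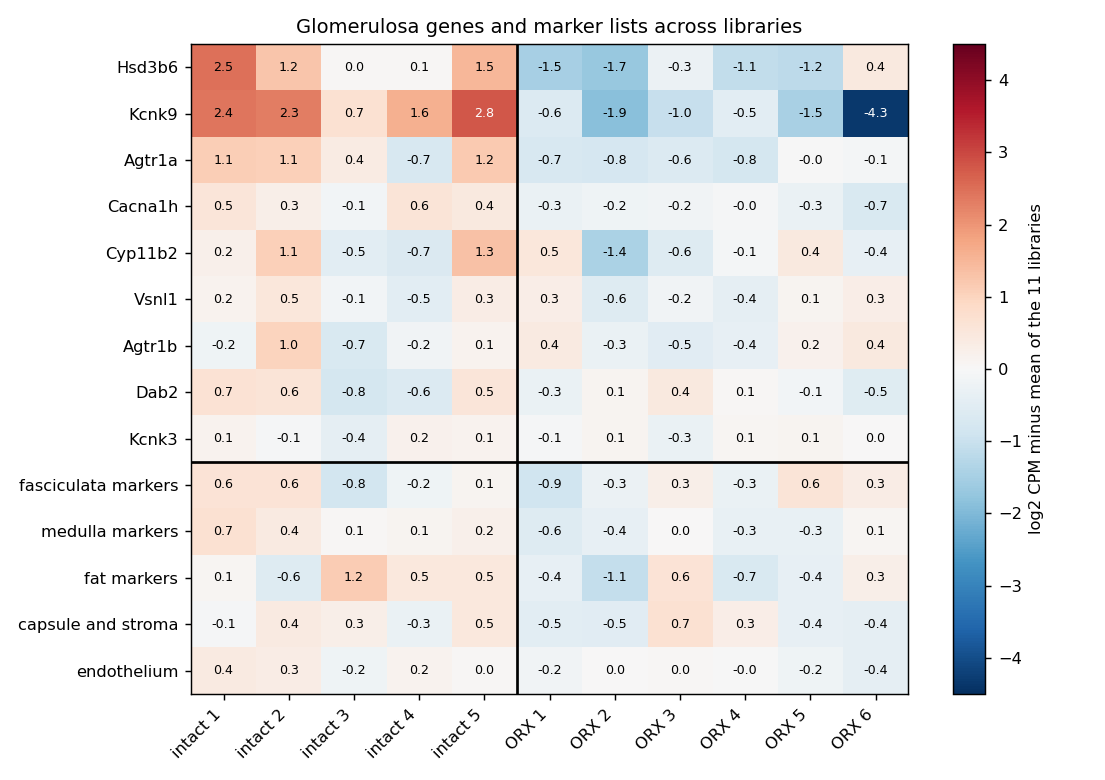
Log2 CPM minus the mean of the 11 libraries (colour and printed value) for the 9 tested genes (upper rows) and the mean of 5 marker lists (lower rows), with intact libraries left of the vertical line. Hsd3b6 and Kcnk9 are highest in intact 1, 2 and 5, and fat markers are highest in intact 3.

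Ratios of related genes within a library do not depend on the scaling of that library. Of the 4 ratios compared, each tested by an exact permutation of the group labels with 462 arrangements (two-sided, smallest possible p 0.00216, Benjamini-Hochberg over the 4), all were lower in ORX. For every 100 counts of Hsd3b1, intact 1 to 5 held 2.54, 1.04, 0.602, 0.45 and 1.36 counts of Hsd3b6 and ORX 1 to 6 held 0.0749, 0.0539, 0.253, 0.115, 0.0786 and 0.286. The groups did not overlap, and the mean log2 ratio was -6.65 ± 0.98 in intact and -9.73 ± 0.99 in ORX (difference -3.08; adjusted exact permutation p = 0.00433). The ratio of Kcnk9 to Kcnk3 did not overlap either, with 1.87 to 5.46 counts of Kcnk9 per 100 of Kcnk3 in intact and 0.0349 to 0.584 in ORX (log2 difference -3.64; adjusted exact permutation p = 0.00433).

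The other 2 ratios overlapped between the groups. Cyp11b2 stood at 2.87, 5.36, 4.68, 1.85 and 6.96 counts per 100 of Cyp11b1, the 11-beta-hydroxylase of the fasciculata, in intact 1 to 5. In ORX 1 to 6 it stood at 3.05, 0.649, 1.7, 1.94, 2.43 and 1.91. The mean log2 ratio was -4.67 ± 0.76 in intact and -5.82 ± 0.77 in ORX (difference -1.15; adjusted exact permutation p = 0.039), while Cyp11b1 itself was at 6203 ± 1914 CPM in intact and 9102 ± 1418 CPM in ORX, a difference that missed the threshold (0.55 ± 0.25 in log2; edgeR adjusted p = 0.203). Agtr1a to Agtr1b had a mean log2 ratio of 4.55 ± 0.79 in intact and 3.50 ± 0.35 in ORX (difference -1.05; adjusted exact permutation p = 0.026). Each of these calls was lost when any 1 of 8 libraries was left out. For Cyp11b2 to Cyp11b1 these were intact 2, 3 and 5 and ORX 2 to 6 (adjusted exact permutation p up to 0.0857, without intact 5). For Agtr1a to Agtr1b they were intact 3 and 5 and ORX 1 to 6 (up to 0.0635, without ORX 2).

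**Figure D4:**
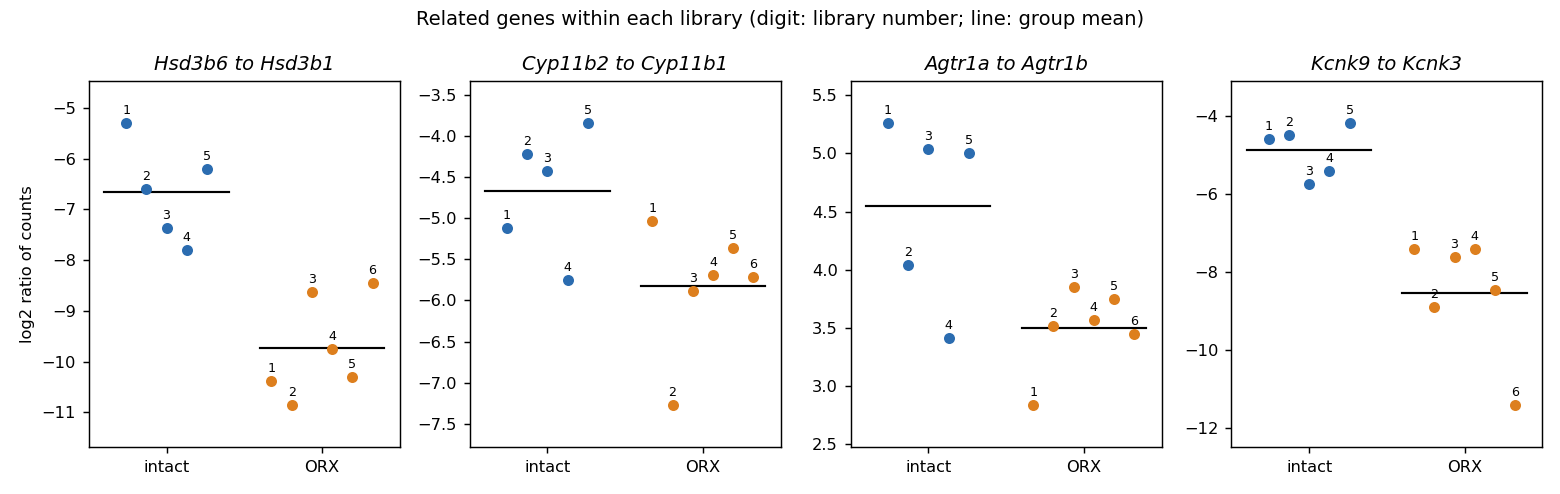
Log2 ratio of the counts of 4 pairs of related genes (vertical axes, a separate scale per pair) in each intact (blue) and ORX (orange) library, with library numbers and group means. Hsd3b6 to Hsd3b1 and Kcnk9 to Kcnk3 separate the groups, and Cyp11b2 to Cyp11b1 and Agtr1a to Agtr1b overlap.

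Similar sequence could have moved reads between partners. Of all stretches of 50 bases in the longest Cyp11b2 transcript, 19.1% also occur in that of Cyp11b1. In the other direction, 9.66% of the stretches of the far more abundant Cyp11b1 occur in Cyp11b2. The shared part was 2.17% for Hsd3b6 in Hsd3b1 and 1.53% for Agtr1a in Agtr1b, and 2.1% of the stretches of the far more abundant Hsd3b1 occur in Hsd3b6. None of the stretches of Kcnk9 occurs in Kcnk3 (0%). Hsd3b1 exceeded Hsd3b6 by a large factor in every library, and how reads that match both genes were counted is not given in the sources used here.

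Around these members, 6 lists of pathway genes were read in the same fit. Of 23 tested channels and pumps that set the membrane potential or are mutated in human aldosteronism, 1 rose and 4 fell, with a median of -0.30 (log2). Clcn2, the chloride channel mutated in familial hyperaldosteronism, rose. It was at 39.0, 40.3, 70.7, 61.4 and 44.3 CPM in intact 1 to 5 and at 235, 184, 78.4, 151, 124 and 160 CPM in ORX 1 to 6, with no overlap (log2 1.60 ± 0.26; edgeR adjusted p = 0.00339). The falls were Kcnmb4, a beta subunit of the large-conductance calcium-activated potassium channel (from 8.81 ± 3.04 to 2.44 ± 0.859 CPM, log2 -1.85 ± 0.31), Kcnk1, another channel of the leak family (log2 -0.99 ± 0.22), Atp1b1, a sodium pump subunit (log2 -0.51 ± 0.13), and Cacna1g, another T-type calcium channel (log2 -1.58 ± 0.41; edgeR adjusted p 0.0366 or below for all 4). Kcnk1 did not pass without intact 3 and 4 together (log2 -0.72; edgeR adjusted p = 0.06) or with the fat markers as a covariate (-0.79; 0.0717). With the latter Atp1b1 (-0.44; 0.0832) and Cacna1g (-1.32; 0.0942) also missed the threshold, which left Kcnmb4 among the falls. DESeq2 also called Atp2b4 lower, and limma voom called Atp2b4 and Kcnq1 lower and Kcnk2 higher. Both tools called more genes than edgeR over the whole table, which bears on their added calls in each list. DESeq2 called 817 genes higher and 920 lower of 15845, and limma voom 961 and 1095 of 14139, against 428 and 450 in edgeR.

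Cacna1g was low, with 114 counts over the intact and 47 over the ORX libraries. Its call was lost without intact 2, 3, 4 or 5 or ORX 1, 2, 4 or 5 (edgeR adjusted p up to 0.0935, without intact 5). That of Atp1b1 was lost without intact 1, 2 or 5 or ORX 1, 2 or 4 (edgeR adjusted p up to 0.0842, without intact 5). Cacna1d, the L-type channel that is also mutated in aldosteronism, was at 46.0 ± 6.98 CPM in intact and 37.3 ± 6.86 in ORX (log2 -0.30 ± 0.16; edgeR adjusted p = 0.266).

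Among 28 genes of Gq, calcium and calmodulin kinase signalling, Camk1, a calmodulin-dependent kinase, rose from 62.4 ± 9.73 to 100 ± 14.1 CPM without overlap (log2 0.69 ± 0.14; edgeR adjusted p = 0.014). In edgeR the other 27 missed the threshold (list median -0.21). DESeq2 and limma voom, which called more genes over the whole table, each called 3 of them lower, Camk2b, Rgs4 and Rgs5. Of 11 genes of transcriptional regulators linked to CYP11B2, not all of which bind its promoter, Nr0b1, the repressor DAX1, rose 8.89-fold (log2 3.15 ± 0.29, edgeR adjusted p = 4.1e-05). The other 10 missed the threshold (list median -0.16). Nr4a1 and Nr4a2, activators of CYP11B2 that angiotensin II induces in human adrenocortical cells, varied more within groups than between them. Nr4a1 ranged from 138 to 5097 CPM in intact and from 501 to 2124 CPM in ORX (log2 -0.51 ± 0.63; edgeR adjusted p = 0.676), and Nr4a2 from 9.67 to 841 and from 29.0 to 317 CPM (log2 -0.66 ± 0.94; edgeR adjusted p = 0.722). Both were highest in intact 1.

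Of 10 tested genes of the renin-angiotensin system, 0 passed in edgeR. At an unadjusted p under 0.05, 4 were lower and 0 higher, against 1730 lower and 1514 higher of all 14139 tested genes. DESeq2 and limma voom each called 1, Ace, lower. Agtr2, the type 2 receptor, was at 35.5 ± 26.5 CPM in intact and 30.7 ± 7.15 in ORX (log2 -0.21 ± 0.40; edgeR adjusted p = 0.798), and its sign changed with the libraries used. The renin gene Ren1 had 0 counts in all 11 libraries.

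Of 16 genes of glomerulosa identity with its Wnt and hedgehog signals, Shh, a factor secreted by glomerulosa cells, fell from 36.2 ± 8.47 CPM to 17.5 ± 4.06 (log2 -1.05 ± 0.20; edgeR adjusted p = 0.00922). Its groups overlapped, with a lowest intact value of 22.3 CPM and a highest ORX value of 22.7 CPM. The other 15 missed the threshold (list median 0.04). Wnt4, a Wnt ligand of the zone, was at 217 ± 28.8 CPM in intact and 271 ± 51.9 in ORX (log2 0.32 ± 0.15; edgeR adjusted p = 0.229). A wider list of 13 genes covered steroid synthesis and the response to steroids and ACTH, with Cyp11b1 of the fasciculata, Nr3c2 and Hsd11b2 among them. Of these 13, Hsd3b1, Cyp21a1 (21-hydroxylase, log2 0.92 ± 0.20, edgeR adjusted p = 0.0187) and Mc2r (the ACTH receptor, log2 1.10 ± 0.19, edgeR adjusted p = 0.0053) rose and 10 did not pass in edgeR (list median 0.37). DESeq2 and limma voom both called Por and Scarb1 lower and Hsd11b2 higher among these 10, and limma voom also called Cyp11a1 lower (limma voom adjusted p = 0.0434). Hsd11b2 was low, at a mean of 0.778 CPM in intact and 1.85 CPM in ORX. Leaving out ORX 5 (edgeR adjusted p = 0.0516) or ORX 2 ended the call of Cyp21a1. Star stood at log2 0.06 ± 0.28 (edgeR adjusted p = 0.93) and Cyp11a1, the side-chain cleavage enzyme, at -0.56 ± 0.32 (edgeR adjusted p = 0.321). The 3 markers of the X-zone, the inner cortical layer that regresses in male mice, rose beside these genes, from summed levels of 28.7 to 40.2 CPM in intact to 831 to 2911 CPM in ORX, and the part of that zone in these differences was not tested.

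**Figure D5:**
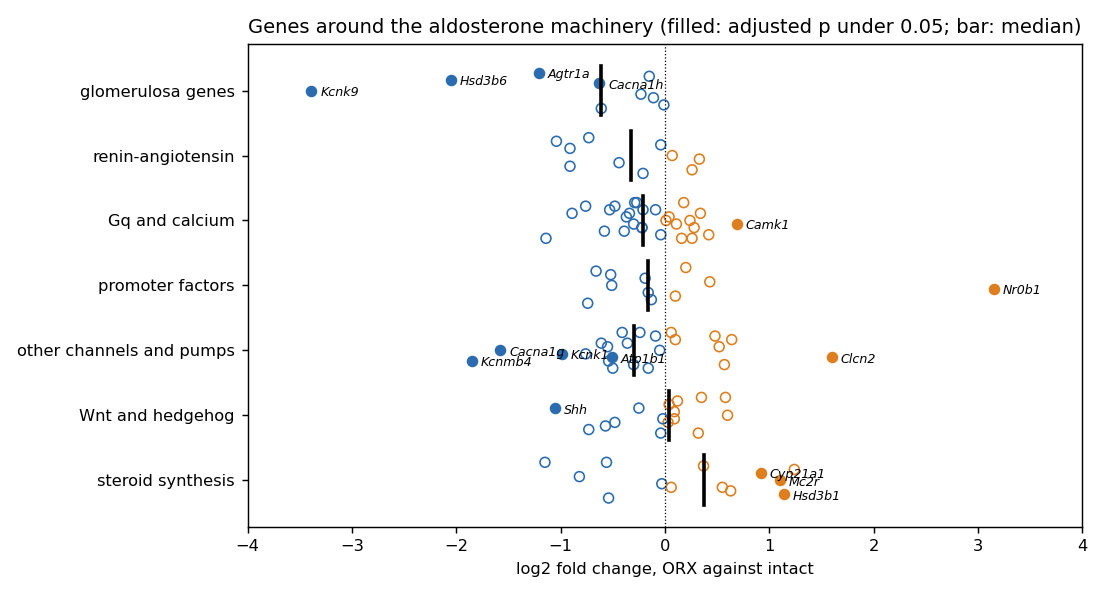
Each circle is the log2 fold change (horizontal axis, ORX against intact) of 1 tested gene of the glomerulosa members or of 6 pathway lists, orange above and blue below 0, filled and named where the adjusted p was under 0.05, with the list's median as a bar. The 4 called members lie below 0, and Clcn2 (1.60) and Nr0b1 (3.15) above it.

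The genes whose levels followed Cyp11b2 most closely from library to library, by Pearson correlation of log2 CPM after removal of the group means over the 11 libraries, were Cand1 (r = 0.97), 2310042D19Rik (0.93), Ap2b1 (0.93), Zbtb40 (0.92) and Lmbrd1 (0.92). They are the top 5 of 13717 genes ranked by that value, so r is a description and carries no p. It also does not measure the size of the changes. Cyp11b2 spanned 70.6 to 468 CPM, but Cand1 only 92 to 140, Ap2b1 149 to 242 and Lmbrd1 80.6 to 146. Zbtb40 spanned 15.6 to 39.1 CPM and 2310042D19Rik 1.49 to 35.9. The rank correlations were 0.92 to 0.95. Without the 2 libraries farthest from the median of Cyp11b2, taken in log2 CPM after removal of the group means, r was 0.87 to 0.98. Between groups they differed among themselves: 2310042D19Rik fell (log2 -2.33 ± 0.42; edgeR adjusted p = 0.00618), as did Zbtb40 (-0.70 ± 0.15; edgeR adjusted p = 0.0169, and 0.0563 without intact 5), while Cand1 (-0.15 ± 0.14), Ap2b1 (-0.17 ± 0.16) and Lmbrd1 (-0.32 ± 0.15) did not pass. Among the members themselves Vsnl1 followed Cyp11b2 most closely (r = 0.81), then Agtr1b (0.66) and Agtr1a (0.64), and Hsd3b6 (0.32), Kcnk3 (0.15) and Cacna1h (0.03) least. All these values share the library's scaling, and 11 libraries in 2 groups leave them imprecise.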

How the data were processed

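RNA was extracted from frozen adrenal glands with TRIsure and an RNeasy kit, and 300 ng of it went into TruSeq libraries, per the labels' protocols. These name both a stranded and an unstranded guide, so the strand setting is not known. The authors deposited raw read counts per gene symbol. Subread 1.5.1, bcl2fastq 1.8.4 and the build mm10 appear in the submitters' processing notes without roles, and neither the annotation nor the handling of multiply matching reads is given in the sources used here. The table holds 2 identical copies, of which the first was used.

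Genes were kept by edgeR's filterByExpr (minimum count 10, minimum total 15), scaled by TMM and, for all 14139 kept, tested in R 4.3.3 by the quasi-likelihood functions glmQLFit and glmQLFTest of edgeR 4.0.16 without a covariate. Each SE is the fold change over the root of F. CPM carry the SD. The labels do not say that each sample came from its own mouse, so p-values cover only the spread of these samples, part of which may be technical. The sample numbers were not taken to pair libraries, since the labels do not say that they do. Deviations of libraries with the same number from their group means correlated at -0.276 to 0.182. Libraries with unlike numbers were not compared, so these values cannot decide whether the numbers mark pairs. Counting error alone sets the floor of 3 counts. On simulated counts for 14139 genes with these means and library sizes, 56.7% of 97 genes changed 2-fold and 93% of 100 genes changed 4-fold were recovered.

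Ratios were log2 of counts plus 0.5, tested with SciPy 1.17.1. Positions and transcript lengths are those of GENCODE M21 on GRCm38, matched by symbol. The members and the lists were chosen with earlier results of these data known. The genes named were all members, up to 4 called genes of each pathway list by smallest p, 14 genes fixed by name, and the 5 genes most like Cyp11b2 with a mean of at least 1 CPM. Cacna1g, Slc18a2, Pdgfrb and the genes called by DESeq2 or limma voom alone were added to complete counts after their values were seen. The result of 1 gene fixed by name is not reported here. The alternatives changed the scaling (RLE, or none beyond library totals), the filter (none, or 1 CPM in 5 libraries), the tool (DESeq2 1.42.0, or limma 3.58.1 voom with sample weights), the call (adjusted p under 0.01, or a null of 1.5-fold), the model (sample number as block, fat or medulla marker level as covariate, or an offset over 10 bins of transcript length), the pseudocount of ratios, and the libraries by leaving out libraries.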

Additional observations from a re-analysis of the deposited data

Results flagged for a closer look

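Among 80 groups of library values examined, 7 held a library far from the others by Dixon's test at the 95% level, where chance gives about 1 in 20. In ORX 6, the log2 ratio of Kcnk9 to Kcnk3 was -11.41, against -8.90 to -7.42 in the other ORX libraries, Kcnk1 was at 25.6 CPM against 13.3 to 17.7, and Wnt4 was at 373 CPM against 237 to 274. ORX 6 is also the library with the largest excess of short over long transcripts (1.43 on the log2 scale), and its part in these values was not tested. In intact 1, Nr4a1 was at 5097 CPM against 138 to 1485 in the other intact libraries, Nr4a2 at 841 CPM against 9.67 to 73.5, and Cacna1g at 0.729 CPM, below the other intact libraries. In intact 3, Cyp11b1 was at 2888 CPM, against 6423 to 7612 in the other intact libraries.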

How the results depend on the processing

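The 4 members called lower were the same 4 with RLE scaling, library totals, no filter, the stricter filter, DESeq2, limma voom, the fat markers as a covariate, and without intact 3 together with intact 4 or ORX 6. The count was 3 with the length offset, 1 (Kcnk9) at an adjusted p under 0.01, for a null of 1.5-fold, and for the sample number taken as replicate block, and 0 with the medulla markers as a covariate. Without any 1 library it ranged from 1 to 4. It was 1 without intact 1, intact 5, ORX 1 or ORX 2 and 2 without intact 2, ORX 4 or ORX 5, and 3 without intact 4, with Kcnk9 called each time. Over all genes the lower calls went from 450 to 95 at an adjusted p under 0.01, 57 for the null of 1.5-fold, 188 with the block, 22 with the medulla covariate and 484 with the length offset. The cause was not tested. For the null of 1.5-fold, 8 of the 11 called pathway genes lost their call: Camk1, Kcnk1, Atp1b1, Shh, Mc2r, Hsd3b1, Cyp21a1 and Cacna1g. At an adjusted p under 0.01, 5 did: Camk1, Kcnk1, Atp1b1, Cyp21a1 and Cacna1g. With the replicate block the differences were -2.23 for Hsd3b6 (edgeR adjusted p = 0.0613), -1.19 for Agtr1a (0.0562) and -0.54 for Cacna1h (0.113), and Camk1 (0.0769), Shh (0.0686), Atp1b1 (0.0635), Cyp21a1 (0.0724), Zbtb40 (0.0505) and Pdgfrb (0.104) did not pass. With the length offset Zbtb40 (-0.38; edgeR adjusted p = 0.271) and Cacna1g (-1.31; 0.0835) did not pass, nor did Cacna1g without intact 3 and 4 (0.0864) or intact 3 and ORX 6 (0.0635). Whether the sample numbers pair libraries is not known. Paired by sample number as a replicate block, no ratio passed: the log2 differences were -3.33 for Hsd3b6 to Hsd3b1, -3.07 for Kcnk9 to Kcnk3, -1.17 for Cyp11b2 to Cyp11b1 and -1.04 for Agtr1a to Agtr1b, in a test whose 5 pairs cannot reach 0.05. Without intact 3 and ORX 6 together, Cyp11b2 to Cyp11b1 (-1.11) and Agtr1a to Agtr1b (-0.92) did not pass. Without any 1 library the 4 ratios ranged from -3.36 to -2.74 (Hsd3b6 to Hsd3b1), from -3.87 to -3.07 (Kcnk9 to Kcnk3), from -1.42 to -0.86 (Cyp11b2 to Cyp11b1) and from -1.34 to -0.87 (Agtr1a to Agtr1b).

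Signs turned only for genes that did not pass. With the medulla covariate the log2 differences were 0.05 for Agtr1b, 0.00069 for Kcnk3, 0.44 for Dab2, 0.05 for Vsnl1, 0.24 for Cyp11a1, 1.85 for Nr4a1 and 3.48 for Nr4a2. Kcnk3 was at 0.04 with library totals, 0.05 with the length offset and 0.02 to 0.05 without intact 1, 4 or 5 or ORX 3, with -0.11 to 0.05 over all single omissions, and Agtr1b at 0.22 without intact 2 (-0.28 to 0.22). Star was at -0.14 without intact 3, -0.05 without intact 4, -0.03 without ORX 5 (-0.14 to 0.18 in all), -0.30 without intact 3 and 4, -0.14 without intact 3 and ORX 6 and -0.15 with the fat covariate. Agtr2 was at 0.21 with limma voom, 0.02 with the block, 0.23 without intact 3 (-0.44 to 0.23 in all), 0.82 without intact 3 and 4, 0.17 without intact 3 and ORX 6 and 0.51 with the fat covariate. Without intact 1, Nr4a1 was at 0.36 (-0.82 to 0.36 in all) and Nr4a2 at 1.44 (-1.14 to 1.44), and Nr4a2 was at 0.08 with limma voom and 0.65 with the block. With the length offset Cand1 was at 0.15 and Ap2b1 at 0.01.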
